A study of Homo sapiens with 2 samples.

Results

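The genes described here are the interleukin and interleukin receptor genes on a promoter array set, taken by name as every gene whose symbol on the array starts with IL and a number, except IL6, IL1A, IL1B and IL1RN. The rule found 84 of the 17280 genes that the arrays name, and all 84 had values. They comprised 40 ligands, 39 receptor chains, 4 decoy receptors or binding proteins (IL1R2, IL13RA2, IL18BP and IL22RA2) and IL4I1, an enzyme named for its induction by IL4. Symbols are those of the array design, so that CXCL8 appears as IL8, CXCR1 and CXCR2 as IL8RA and IL8RB, IL17A as IL17, IL25 as IL17E, IL36G as IL1F9 and the lambda interferons as IL28A, IL28B and IL29.

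Interleukins are secreted signalling proteins of the immune system, and their receptors are made of chains that are often shared between several ligands. Ligands of the common gamma family signal through a complex that holds the chain encoded by IL2RG, and IL11, like IL6, signals through the chain encoded by IL6ST. Several of these ligands act on megakaryocytes, the precursors of platelets, which respond to IL3 and IL11. GATA1 is the transcription factor of red cells and megakaryocytes that binds DNA at GATA sequences.

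The samples were chromatin of untreated Meg-01 cells, a megakaryoblastic leukemia line, recovered with a goat antibody to the C-terminus of GATA1 (the IP, labelled with Cy5) or with normal goat IgG (the background, labelled with Cy3). Both were hybridized together to chIP1 and chIP2, a pair of arrays that carry different probes, with 52 of the genes on chIP1 and 32 on chIP2. Each probe was thus measured in 1 hybridization without a dye swap, so no value below has an error between samples and no test between IP and IgG was possible. Values are log2(IP/IgG) with the median of each array at 0, and a window is the mean of 3 adjacent probes. A window of at least 1 (2-fold toward the IP) is called enriched and one of at most -1 is called IgG-side. The spot error was read from 2393 control probes with 1 spot on each array, leaving out those dimmer or brighter than most genomic probes. Their difference between the arrays had an SD of 0.19, which corresponds to 0.08 for a mean of 3 spots. It covers only spotting, labelling and scanning, and not the dimmest and brightest probes. The median raw signal of genomic probes was 543 and 544 in the IP channel of chIP1 and chIP2, against 342 and 340 for negative control spots, and in the IgG channel it was 412 and 440 against 303 on both. Because chromatin and not RNA was measured, the cell line could not be checked against marker genes, and nothing here says whether a gene is transcribed.

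Among the highest and lowest window of each gene, only those of IL9R, IL20, IL29, IL1RL2 and IL12RB1 were past 2-fold with the centre probe within the 250 bases upstream of the start. Those 250 bases are printed here from the RefSeq promoter table (GRCh38.p14), 5′ to 3′ on the strand of the gene, to show the promoters at which these windows were centred. By the distances on the array, the windows of IL9R, IL20, IL29, IL1RL2 and IL12RB1 reach beyond these bases. Capitals mark a GATA core match, spelled AGATAA or AGATAG or TGATAA or TGATAG on either strand. The start used by the array was not compared with that of RefSeq.
IL9R (enriched, chrX:155997446-155997695, plus strand): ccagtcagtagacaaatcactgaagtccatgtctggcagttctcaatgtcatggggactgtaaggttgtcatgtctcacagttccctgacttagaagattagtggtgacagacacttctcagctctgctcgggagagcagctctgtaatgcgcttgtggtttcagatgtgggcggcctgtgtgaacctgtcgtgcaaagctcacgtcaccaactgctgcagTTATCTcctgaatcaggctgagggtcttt
IL20 (IgG-side, chr1:206863315-206863564, plus strand): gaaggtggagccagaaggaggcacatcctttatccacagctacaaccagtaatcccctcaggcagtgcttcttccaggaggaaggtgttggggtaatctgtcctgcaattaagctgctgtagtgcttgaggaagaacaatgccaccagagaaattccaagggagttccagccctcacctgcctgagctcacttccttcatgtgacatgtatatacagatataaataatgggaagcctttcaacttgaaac
IL29 (IgG-side, chr19:39296157-39296406, plus strand): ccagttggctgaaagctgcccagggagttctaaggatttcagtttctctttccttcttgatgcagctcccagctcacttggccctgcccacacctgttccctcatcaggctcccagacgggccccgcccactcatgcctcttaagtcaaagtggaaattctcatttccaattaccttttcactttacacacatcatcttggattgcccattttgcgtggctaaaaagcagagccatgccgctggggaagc
IL1RL2 (IgG-side, chr2:102186723-102186972, plus strand): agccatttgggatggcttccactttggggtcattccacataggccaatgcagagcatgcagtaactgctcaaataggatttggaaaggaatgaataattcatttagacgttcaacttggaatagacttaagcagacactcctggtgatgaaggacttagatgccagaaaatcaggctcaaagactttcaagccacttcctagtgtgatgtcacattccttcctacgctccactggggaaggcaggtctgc
IL12RB1 (IgG-side, chr19:18098928-18099177, minus strand): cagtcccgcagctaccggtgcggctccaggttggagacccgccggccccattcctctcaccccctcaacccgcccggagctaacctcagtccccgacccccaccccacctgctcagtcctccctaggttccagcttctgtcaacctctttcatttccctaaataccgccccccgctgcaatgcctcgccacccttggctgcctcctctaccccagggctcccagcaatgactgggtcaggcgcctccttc
The promoter of IL9R held 1 match, beginning 29 bases upstream of the start on the opposite strand, and the other promoters shown held 0. Of the 69 genes described here with a complete entry in that table, 16 (23.2%) held a match in these 250 bases, against 22.9% of 27303 promoters in all and 17.04% of 13225 promoters of genes on the arrays. The share was 23.7% of 38 genes with an enriched window anywhere and 22.6% of 31 genes without one. Of the 47 enriched highest windows, 4 were centred within 500 bp of the start, so these shares cannot show whether matches lie under the windows. An enriched window within 500 bp of the start was present in 2 of 16 genes with a match and 5 of 45 without one. Over all genes it was present in 27.1% of 2164 and 25.5% of 10687. A match was held by 25.7% of 35 receptor chains and 23.3% of 30 ligands.

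An enriched window was found for 47 of the 84 genes, or 56.0%, beside 57.1% of the 17054 genes with windows on the arrays. An IgG-side window was found for 51, or 60.7%, beside 52.9% of all genes. Both kinds occurred in 30 of the 84 genes and neither in 16, beside 5336 and 3635 of all 17054 genes. At 3-fold, 17 genes had a window toward the IP and 17 toward the IgG, beside 20.6% and 22.3% of all genes. At least 2 enriched windows in 1 region were present in 38 of the 84 genes, beside 42.2% of all. The median highest window was 1.15, beside 1.09 for all genes, and the median lowest window was -1.14, beside -1.05. In the reported setting, the counts of the whole list on the IP side therefore lay near the background of the arrays. An enriched window in a gene of this list was about as common in this setting as in any other gene. The order of neighbouring genes is not resolved, because steps between them were mostly smaller than the 0.08 of the spots alone.

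**Figure D1:**
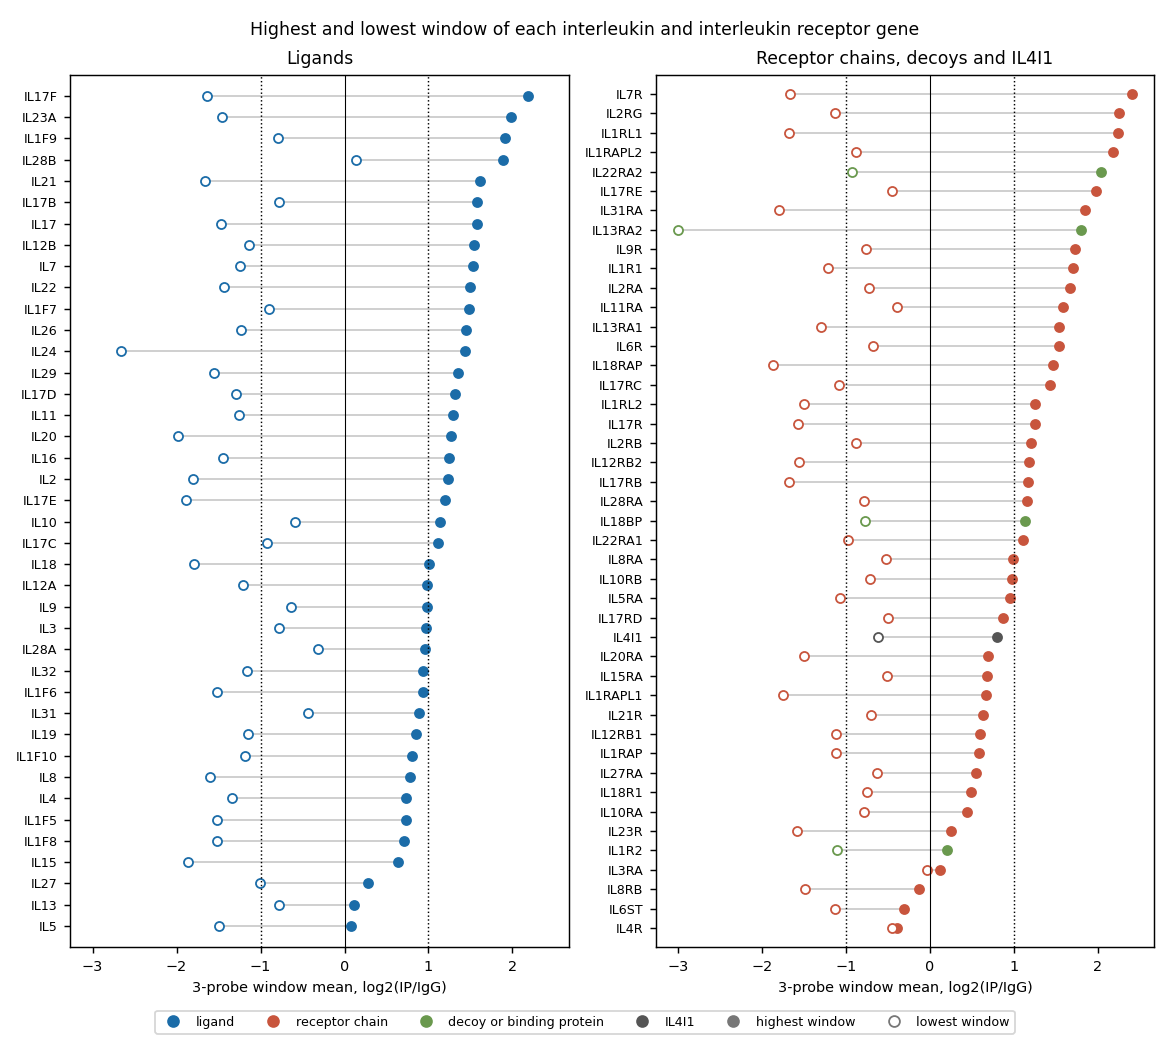
Highest (filled) and lowest (open) 3-probe window mean of log2(IP/IgG) for the 40 ligands (left) and the 44 other genes (right), sorted by the highest window. Dotted lines mark 2-fold on each side, and 30 of the 84 genes pass both lines, beside 5336 of all 17054 genes.

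The highest windows belonged to receptor chains. IL7R encodes a chain shared by the receptors for IL7 and TSLP. Its highest window lay on chromosome 5 from 35890481 to 35890797 (array coordinates, genome build not given in the sources used here), 2083 bp upstream of the start, with probes of 2.30, 2.19 and 2.72 and a mean of 2.40. It belonged to the longest region of these genes, with 6 joined enriched windows. The gene body differed in direction, with a lowest window of -1.67 at 2425 bp downstream, and 9 of its 32 windows were IgG-side. The peak was dim, with a mean intensity at the 12.3rd percentile of the array, and with normexp background correction the highest window of the gene was 1.10.

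IL2RG encodes the common gamma chain. Its highest window was 422 bp upstream on chromosome X from 70114606 to 70115033, in a promoter shared head to head with MED12, with probes of 1.73, 2.40 and 2.61 and a mean of 2.25. All 3 probes were past 1.7, and the probe 18 bp downstream of the start was at -0.36. The mean of all its windows within 500 bp of the start, 0.99, was the highest of the 75 genes that had such windows. IL2RG stayed above 2-fold under all other settings run (1.24 to 2.61), and its probes were of middle intensity (48.7th percentile).

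IL1RL1 encodes ST2, the receptor for IL33. Its highest window lay on chromosome 2 from 102410783 to 102411140, 1320 bp upstream, with probes of 1.73, 1.98 and 3.02 and a mean of 2.24. These were bright probes, at the 99.1st percentile of the array, and IL1RL1 was the only one of the 12 genes with the highest windows whose value rose with normexp, to 2.41. It also had 12 IgG-side windows among 56. The next receptor chain, IL1RAPL2, a relative of the IL1 receptor chains known from neurons, reached 2.18 at 94862 bp inside the gene. That window is far from a promoter, its probes were at the 1.65th percentile of intensity, and its value fell to 0.21 with normexp.

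The highest ligand was IL17F, a proinflammatory cytokine, with probes of 2.65, 1.83 and 2.08 and a mean of 2.19 on chromosome 6 from 52215927 to 52216254, 1197 bp inside the gene. Near its start IL17F was IgG-side, with a highest window of -1.13 between 1000 bp upstream and 500 bp downstream. IL23A, which encodes the p19 subunit of IL23, had a highest window of 1.99 at 748 bp upstream in the promoter it shares with USP52. There the probes were 2.98, 3.18 and -0.19, so the value rested on 2 of the 3 probes. IL1F9, a skin cytokine of the IL1 family, had 1.92 at 564 bp downstream and 5 joined enriched windows, the second longest region. IL28B, a lambda interferon, had 1.88 at 3957 bp upstream with only 7 windows in all, and none of its windows was below 0.14. IL28A and IL29 lie next to it and are close copies in sequence, and their highest windows were 0.96 and 1.36. How far the copies share signal on the array was not tested.

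Of the other genes among the 12 highest, IL17RE, a receptor chain for IL17C, had 1.98 with probes from 0.41 to 3.59 at 13050 bp inside the gene. That window, on chromosome 3 from 9932349 to 9932723, lies closer to the start of its neighbour IL17RC, near 9933781, than to that of IL17RE. Between 1000 bp upstream and 500 bp downstream of its own start, the highest window of IL17RE was 0.34. The remaining 3 were IL22RA2, a secreted binding protein for IL22 (2.03), IL31RA, a receptor chain for IL31 (1.85), and IL13RA2, a decoy receptor for IL13 (1.79). All 3 rested on dim probes, at the 2.03rd, 2.38th and 1.74th percentile of intensity. With normexp they were 0.35, -0.03 and 0.18, and only IL22RA2 and IL31RA remained above 2-fold (1.52 and 1.12) when both channels had to be well above background. For IL13RA2 that value was 0.73. With normexp, 22 of the 84 genes (26.2%) had an enriched window in all, beside 33.1% of all genes.

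**Figure D2:**
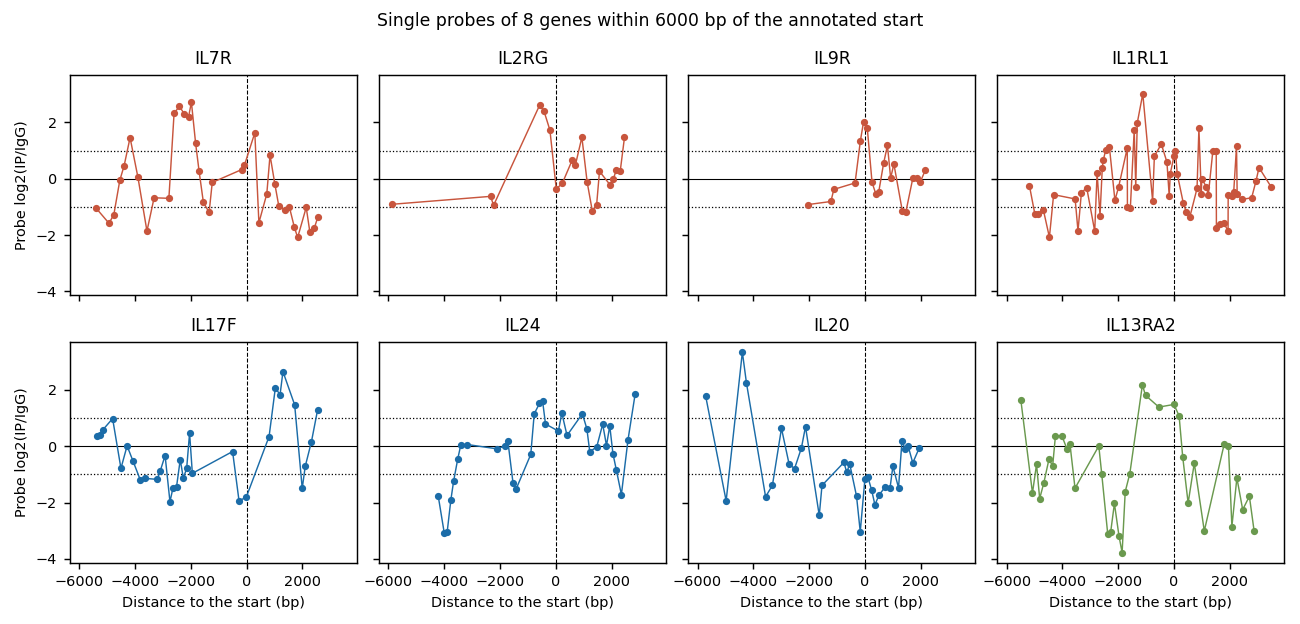
Single probe values of log2(IP/IgG) against the distance to the annotated start (dashed line) for 8 genes, with receptor chains in red, ligands in blue and a decoy receptor in green. IL2RG and IL9R rise at the start, IL7R and IL1RL1 upstream of it, and IL20 runs below 0 across its start.

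IL9R, which encodes the receptor chain for IL9, had the enriched highest window closest to a start, at 49 bp upstream. Its probes at 162 bp and 49 bp upstream and 83 bp downstream were 1.35, 2.02 and 1.81, with a mean of 1.73, and the next probes on either side were -0.15 and -0.13. The peak thus spanned 3 probes, and in windows of 5 probes the highest value of the gene was 0.98. IL9R lies in the pseudoautosomal region and has related pseudogenes on other chromosomes, and their part in the signal was not tested. The printed promoter of IL9R is the only one of those shown with a GATA core match.

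IL2RA, the alpha chain of the IL2 receptor, had 1.67 at 1969 bp upstream (chromosome 10 from 6146115 to 6146379), with probes of 1.72, 1.33 and 1.95. The study lists IL2RA, IL2RG and IL17E among genes with a bound region on these same arrays and a changed transcript, so their enriched windows are not independent evidence of binding. For IL17E, an inducer of type 2 responses, the highest window was 1.20 with probes of 1.37, 2.24 and -0.03, and it fell to 0.74 with normexp. IL17E also had an IgG-side window of -1.89, and 8 of its 50 windows were IgG-side.

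Genes with a part in megakaryocyte and platelet biology fell on both sides of 2-fold. IL11, a ligand that raises platelet counts, had a highest window of 1.29 at 3234 bp downstream, with probes of 0.83, 2.08 and 0.96. It fell to 0.94 in windows of 5 probes. Its receptor chain IL11RA had 1.59 at 6605 bp inside the gene, with all 3 probes above 1 and no IgG-side window. IL6ST, the signalling chain shared by these receptors, had 2 windows only, neither of them near the start, and its higher one was -0.31 with probes from -3.34 to 1.44.

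IL3, a growth factor of early blood cells, had a highest window of 0.97, and IL3RA, its receptor chain, had 0.12 among 3 windows. The mean of the 7 probes of IL3RA was 0.43, and its highest probe, at 3.14, fell in no window. IL6R, the ligand-binding chain for IL6, had 1.54, but on 1 probe of 3.98 beside probes of 0.66 and -0.03. It was 0.65 when both channels had to be well above background. IL1R1, which transmits the IL1 signal, had 1.70 at 4732 bp upstream and 6 enriched windows among 34, and its partner IL1RAP had 0.59. IL8, a chemokine released by platelets, had 0.78 at 48 bp upstream, and its receptors IL8RA and IL8RB had 0.99 and -0.13. IL9 reached 0.98, IL21 1.62, IL7 1.53, IL4 0.73, IL21R 0.63 and IL10RA 0.44. IL21 and IL7 were at 0.73 and 0.96 with normexp.

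The first genes below the threshold were IL12A and IL8RA, both at 0.99, and the first above it were IL18 and IL22RA1, at 1.01 and 1.11. Those with the lowest highest window were IL4R (-0.39), IL6ST, IL8RB, IL5 (0.07), IL13 (0.11) and IL3RA. IL4R, IL6ST, IL3RA and IL8RB had between 2 and 5 windows each, so there was little in which a high value could appear. IL5 and IL13, neighbours on chromosome 5 that encode type 2 cytokines, had 19 and 21 windows. Neither passed 2-fold toward the IP, and 6 windows of IL5 were IgG-side.

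The deepest windows on the IgG side were those of IL13RA2 (-3.00), IL24 (-2.66), IL20 (-1.98), IL17E, IL18RAP (-1.87) and IL15 (-1.87). For IL13RA2 the probes were -3.77, -3.19 and -2.03 at 1973 bp upstream, less than 1000 bp from the region of 4 enriched windows of the same gene, and 16 of its 35 windows were IgG-side. IL24 and IL20 are adjacent cytokine genes on chromosome 1. IL24 had its lowest window 3891 bp upstream (-3.06, -3.03 and -1.90) and an enriched window of 1.43 at 585 bp upstream. IL20 was different, with probes of -1.76, -3.03 and -1.14 across the start and 13 of 30 windows on the IgG side. IL18RAP, a chain of the IL18 receptor, had both an enriched region (1.47) and an IgG-side window. IL15 had no enriched window, and 9 of its 54 windows were IgG-side.

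The last members named for long regions were IL17B and IL17RB, a ligand and a receptor chain of the IL17 family, with 4 joined enriched windows each and highest windows of 1.58 and 1.16. Leaving aside the alternative that keeps only the start region, 16 of the 47 genes with an enriched window stayed at or above 2-fold under every alternative of normalization, filter, window length or distance trend. They were the receptor chains IL2RA, IL2RG, IL7R, IL11RA, IL1R1, IL1RL1, IL18RAP, IL17RC and IL17RE and the ligands IL12B, IL17B, IL17F, IL1F9, IL23A, IL24 and IL28B. Some passed narrowly. IL24, IL17RC and IL17B were at 1.00, 1.02 and 1.04 with normexp, and IL11RA and IL18RAP at 1.01 and 1.02 in windows of 5 probes. No share over all genes stands beside this count, so it is not read as a trait of these genes.

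**Figure D3:**
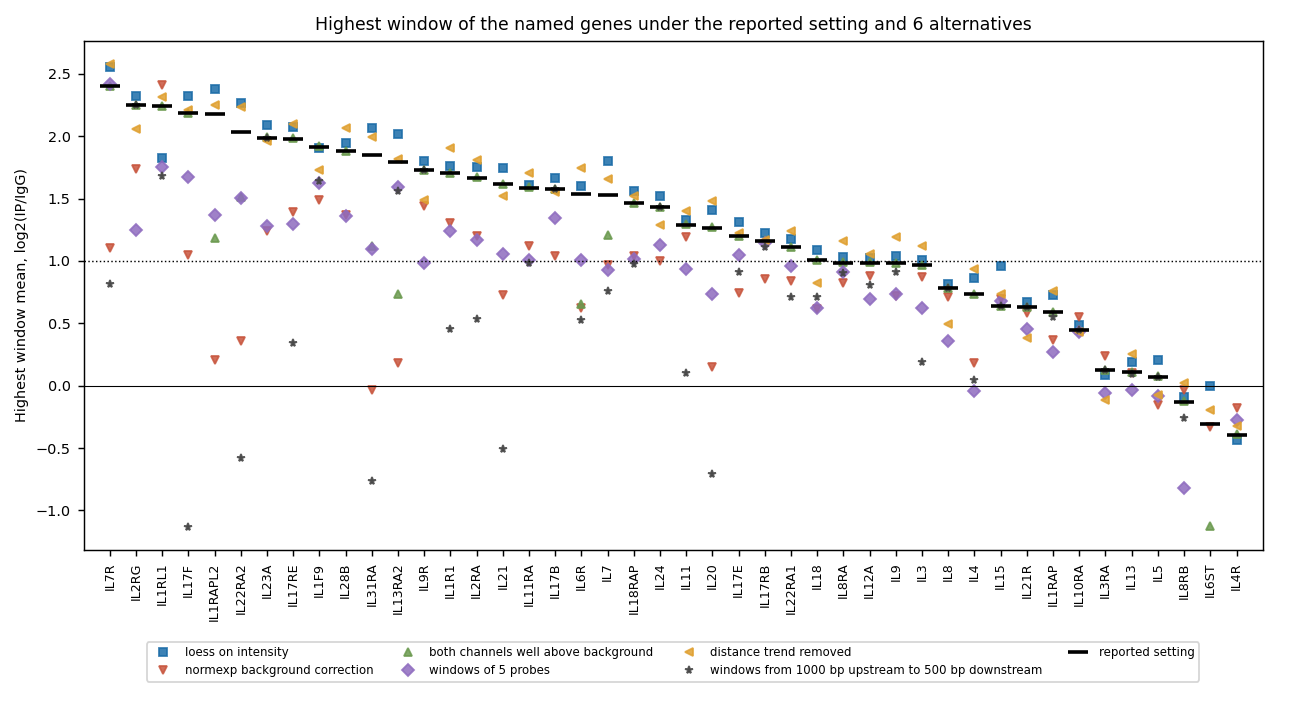
Highest window mean of log2(IP/IgG) of the 44 named genes in the reported setting (black bars) and under 6 alternatives (symbols). The dotted line marks 2-fold, and the values of dim genes such as IL1RAPL2, IL22RA2, IL31RA and IL13RA2 fall far below it with normexp background correction.

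Ligands and receptor chains were then set side by side. An enriched window was present in 23 of 40 ligands (57.5%) and 21 of 39 receptor chains (53.8%), both near the 57.1% of all genes. Their median highest windows were 1.16 in both lists. The order depended on the array, with 12 of 25 ligands and 15 of 25 receptor chains on chIP1 but 11 of 15 and 6 of 14 on chIP2. No difference in the highest window between the roles can thus be read from these arrays. At 3-fold, 10 of 39 receptor chains and 5 of 40 ligands had a window toward the IP, beside 20.6% of all genes.

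The IgG side differed more. Windows past 2-fold toward the IgG occurred in 29 of 40 ligands (72.5%), in 20 of 39 receptor chains (51.3%) and in 52.9% of all genes. Ligands had more windows per gene than receptor chains (median 27 against 21, and 23 for all genes), and more windows give more chances to pass a threshold in either direction. Mean log2 intensity was alike, with medians of 9.71, 9.84 and 9.91 for ligands, receptor chains and all genes. Among genes with 20 to 29 windows, 11 of 14 ligands and 8 of 13 receptor chains had an IgG-side window (57.8% of all genes), and among those with 30 or more, 11 of 16 and 7 of 10 did (71.5% of all). Among genes with 10 to 19 windows it was 7 of 7 ligands and 3 of 11 receptor chains (38.2% of all genes), and among those with 1 to 9 windows it was 0 of 3 and 2 of 5 (18.7% of all). Ligands had the larger share in the bins from 10 to 29 windows. With 30 or more windows the shares were close (68.8% and 70.0%), and the bin of 1 to 9 windows held few genes. Over all bins, ligands also had the larger share with loess on intensity (70.0% against 48.7%, and 49.9% of all genes). The shares were 37.5%, 25.6% and 23.9% with normexp and 55.0%, 28.9% and 34.3% in windows of 5 probes. With the distance trend removed they were 77.5%, 48.7% and 49.2%, and at 3-fold 22.5%, 17.9% and 22.3%. The part of the number of windows was not tested.

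**Figure D4:**
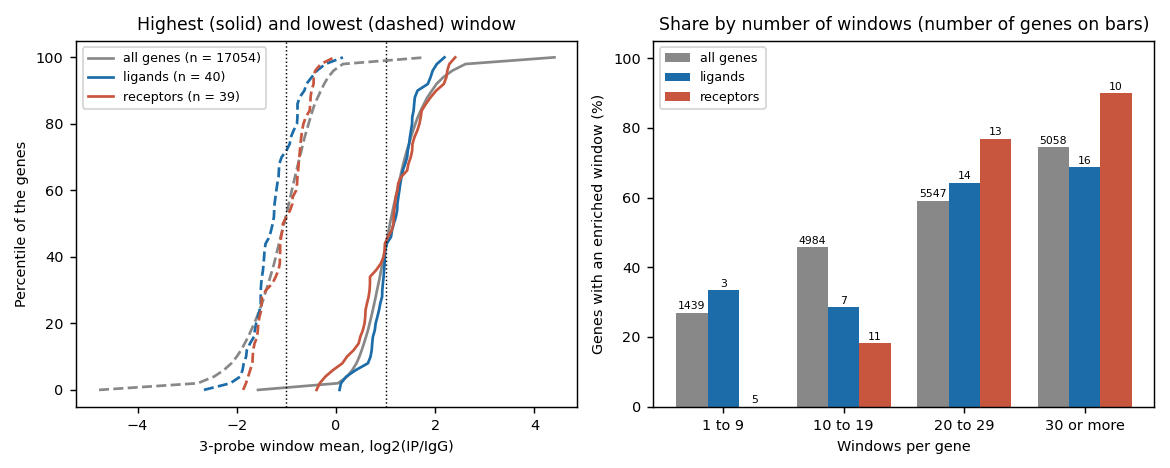
Left, percentile of genes against the highest (solid) and lowest (dashed) window mean of log2(IP/IgG) for 40 ligands, 39 receptor chains and all 17054 genes. Right, percentage of genes with an enriched window by the number of windows per gene, with the number of genes above each bar, where genes with 20 or more windows have larger shares than genes with fewer in all 3 lists.

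The roles also differed at the start itself, a comparison chosen after the values had been seen. Within 500 bp of the start, windows of all genes leaned to the IP, with 10.4% enriched and 4.19% IgG-side. The 196 ligand windows there leaned the other way, with 4 enriched (2.04%) and 28 IgG-side (14.3%). The 173 windows of receptor chains lay between, with 8 enriched (4.62%) and 12 IgG-side (6.94%). Windows of a gene overlap and are not independent, so the same was counted per gene. The mean of a gene's start windows was below 0 in 24 of 37 ligands, 10 of 34 receptor chains and 25.6% of 16459 genes, with medians of -0.24, 0.19 and 0.28. With the trend of all windows with distance removed, it was below 0 in 32 of 37 ligands, 18 of 34 receptor chains and 45.6% of all genes, with medians of -0.49, -0.07 and 0.05. The order was not the same at other distances. Beyond 4000 bp upstream, 10 of 143 ligand windows (6.99%) and 13 of 68 windows of receptor chains (19.1%) were IgG-side, beside 14.03% of all windows there. From 2000 to 1000 bp upstream, 11 of 129 ligand windows (8.53%) and 11 of 66 windows of receptor chains (16.7%) were enriched, beside 6.79% of all.

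The order at the start was the same on both arrays. Each array holds a part of the genes whose values had already been seen, so this is not a replication. On chIP1 the mean was below 0 in 16 of 25 ligands and 7 of 23 receptor chains, beside 24.4% of all genes there. On chIP2 it was below 0 in 8 of 12 and 3 of 11, beside 26.8% of all genes there. The lowest start means were those of IL20 (-1.71), IL17F (-1.22), IL29 (-1.17), IL17 (-1.08) and IL26 (-1.03) among ligands, and IL31RA (-1.22), IL12RB1 (-0.92) and IL23R (-0.92) among receptor chains. IL24 (0.95), IL17C (0.72) and IL7 (0.66) were the highest ligands, and IL2RG (0.99), IL9R (0.60) and IL22RA1 (0.55) the highest receptor chains. An enriched window within 500 bp of the start was found for 9 of 75 genes (12%), beside 25% of all genes. These were IL1F9, IL17B, IL17C and IL24 among ligands, IL2RG, IL9R, IL17RB and IL28RA among receptor chains, and IL13RA2.

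**Figure D5:**
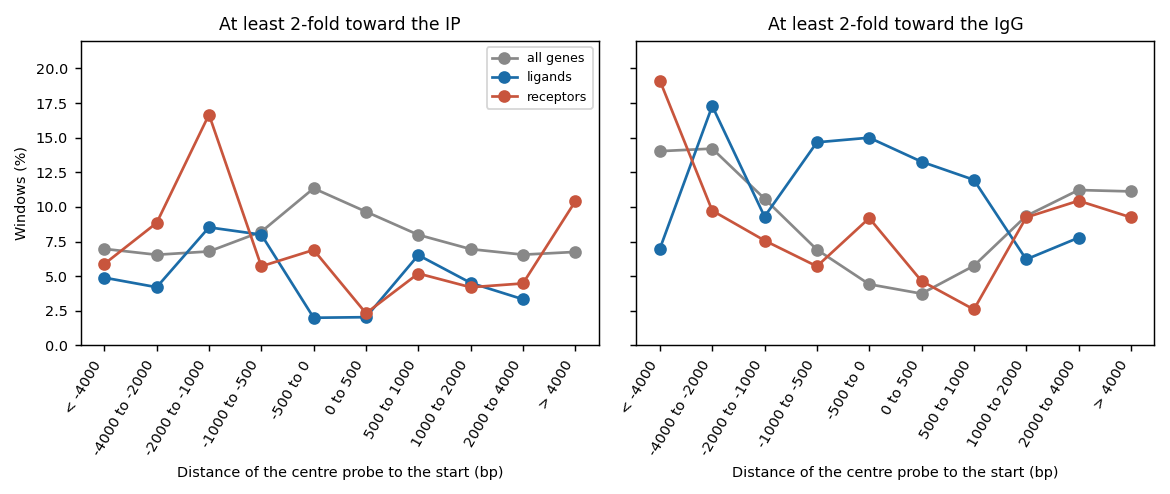
Percentage of windows at least 2-fold toward the IP (left) or the IgG (right) by distance of the centre probe to the start, for all genes, ligands and receptor chains, leaving out points of fewer than 20 windows. Within 500 bp of the start the ligands have fewer IP-side windows (4 of 196) and more IgG-side windows (28 of 196) than all genes.

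Base composition also differed between the roles. The 250 bases upstream of the start had a median GC content of 47.2% in 30 ligands, 56.0% in 35 receptor chains and 62.8% in 13225 genes on the arrays. Over all genes the median start mean was -0.21 where GC was below 40%, 0.09 from 40% to 50%, and 0.33 both from 50% to 60% and above. For the genes described here it was 0.10, -0.07, -0.18 and 0.23 in the same ranges, without a steady rise. From 40% to 50% GC, the start mean was below 0 in 11 of 13 ligands (median -0.24) and in 1 of 8 receptor chains (median 0.22). Below 40% it was below 0 in 4 of 8 ligands (median -0.11) and 0 of 2 receptor chains (median 0.31). Above 60% it was below 0 in 2 of 4 ligands (median 0.02) and 5 of 14 receptor chains (median 0.26). From 50% to 60% it was below 0 in 2 of 3 ligands (median -0.87) and 2 of 6 receptor chains (median 0.37). Across 61 of the genes, the start mean and GC content had a Pearson correlation of 0.20 and a Spearman correlation of 0.23, across genes that share arrays and in part loci. Over all 12851 genes with both values, these correlations were 0.21 and 0.12. The part of GC content in the difference between the roles was not tested.

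By family, and beside the 57.1% of all genes, enriched windows ranged from 10 of 11 in the IL17 family and 10 of 15 in the family of IL10 and the lambda interferons to 0 of 4 in the common beta family (IL3, IL5 and their receptor chains) and 0 of 3 for IL8 and its receptors. The common gamma family, counted with IL13 and its receptors, had 10 of 17, the IL1 family 9 of 17, and the family of IL11, IL12, IL23, IL27 and IL31 with their receptors 7 of 14. In the IL17 family all 6 ligands (IL17, IL17B, IL17C, IL17D, IL17E and IL17F) and 4 of 5 receptor chains passed, with IL17RD at 0.86 as the exception. With normexp, 5 of these 11 genes stayed at or above 2-fold (IL17B, IL17C, IL17F, IL17RC and IL17RE). The highest windows of this family ran from 0.86 to 2.19 with a median of 1.32. The family also had many windows, with a median of 32 per gene beside 23 for all genes, and 74.5% of all genes with 30 or more windows passed.

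Genes that lie next to each other often had different highest windows. In the cluster of IL1 receptor genes on chromosome 2, the highest windows were 0.20 in IL1R2, 1.70 in IL1R1, 1.26 in IL1RL2, 2.24 in IL1RL1, 0.49 in IL18R1 and 1.47 in IL18RAP. In the neighbouring cluster of IL1 family ligands, IL1F7 and IL1F9 had 1.479 and 1.92, and IL1F6, IL1F8, IL1F5 and IL1F10 stayed between 0.70 and 0.93. IL1F8 and IL1F5 shared 5 windows, and IL17RE and IL17RC shared 2, so their values are not independent. On chromosome 1, IL10, IL19, IL20 and IL24 had 1.13, 0.86, 1.27 and 1.43. IL26 and IL22, neighbours on chromosome 12, had 1.44 and 1.496.

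Of the 47 highest windows that were enriched, 26 were centred upstream of the start and 21 downstream. Of these, 4 were centred within 500 bp of the start and 11 within 1000 bp, 10 were over 2000 bp upstream and 8 over 2000 bp downstream. All 3 probes were at or above 1 in 17 of the 47, so in the other 30 the window rested partly on probes below 2-fold. The median intensity percentile was 39.7, and 17 of the 47 windows lay below the 25th percentile. The same counts for the highest windows of all genes are not given here, so none of these is read as a trait of this list.

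The wider interleukin pathway was read from a list of 45 genes with other names (partner ligands, receptors, kinases, transcription factors and inhibitors), of which 44 had windows. An enriched window was found for 22 of 44 genes and an IgG-side window for 18 (40.9%), beside 57.1% and 52.9% of all genes. By role, 4 of 10 ligands, 4 of 7 receptors, 6 of 12 adaptors and kinases, 4 of 9 transcription factors and 4 of 6 inhibitors had an enriched window. THPO, the main growth factor of megakaryocytes, was at the threshold with 1.00. CSF2RB, the common beta chain used by IL3RA and IL5RA, had 1.05, JAK2, the kinase that signals below the thrombopoietin receptor, had 1.39, and STAT3 had 1.34. STAT5A and STAT5B shared their highest window, 1.45. JAK1 was among the lowest with 0.35. The highest were LIFR, a partner chain of IL6ST (2.29), NFKB1, a transcription factor activated by IL1 receptors (2.22), and TRAF3IP2, the adaptor of IL17 receptors (2.17).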

How the data were processed

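GATA1 ChIP and IgG DNA of Meg-01 cells had been amplified after linker ligation, labelled and hybridized to 2 arrays with different probes. Per the file headers, the deposited intensity values came from Agilent Feature Extraction 9.5.3.1, with spatial and multiplicative detrending, linear dye normalization and surrogate values near background, and without local background subtraction. The deposited mean and background intensities were uncorrected. The deposited log10 ratio of each spot is Cy5 over Cy3, and the series value table holds the same log10 ratios. The deposited p-value of each spot was not used. Genome build and probe design version are not given in the sources used here. In the study, lowess within arrays and median normalization between them were followed by peak calling with an error model in commercial software, which was not used here.

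Here log2 of the processed IP over IgG intensity was centred on the median of each array (Python 3.11.15, pandas 2.3.3). Spots were dropped when they were controls, were marked as non-uniform or did not stand well above background in at least 1 channel, whereas saturated spots stayed in. This kept 237004 of 237210 probes on chIP1 and 236864 of 237201 on chIP2. Windows held 3 adjacent probes with both neighbours within 1000 bp of the centre, and enriched windows within 1000 bp were joined. A gene took every window holding a probe annotated to it, so divergent promoters counted for both genes. The steps were tested on simulated data. Normexp (offset 50) and loess used limma 3.58.1 in R 4.3.3.

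The genes, roles, families and pathway list were chosen with earlier results of these data known. Values are given for the 12 genes with the highest window, the 6 with the lowest highest window, the 6 with the lowest window, genes with at least 4 joined enriched windows, the 2 genes on either side of the threshold, and genes known from megakaryocyte biology or listed by the study. Other genes were named after their values had been seen. No p-value was computed, since genes are not replicates. Precision is limited by there being 1 array for each set of probes.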

Additional observations from a re-analysis of the deposited data

How the results depend on the processing

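With normexp background correction, 22 of the genes had an enriched window (26.2%, beside 33.1% of all genes) and 26 an IgG-side one (31.0%, beside 23.9%), and 14 of the pathway list had an enriched one. Loess on intensity gave 55 of the genes an enriched window (65.5%, beside 58.4% of all genes). Removal of the distance trend gave 54 (64.3%, beside 55.2%). The share of these genes was thus above or below that of all genes depending on the setting. Single probes gave 76 and 36 enriched (genes described here, then pathway list, beside 86.1% of all genes), windows of 5 probes 26 and 11 (34.6%), a 1.5-fold threshold 72 and 37 (84.97%), and a 3-fold threshold 17 and 8 (20.6%), with 17 genes on the IgG side (22.3%). At 4 robust SDs of the array 0 genes of either list were enriched and 1 of the genes described here was IgG-side, beside 1.51% and 2.10% of all genes. Windows from 1000 bp upstream to 500 bp downstream of the start gave 12 of 76 genes (15.8%) and 7 of the pathway list enriched, beside 28.9% of all genes, and 23 genes IgG-side (30.3%, beside 13.2%). Ligands exceeded receptor chains by 0.0060 in the median highest window, by 0.24 with single probes and by 0.084 with the distance trend removed. The sign turned with normexp (-0.066), both channels well above background (-0.052), windows of 5 probes (-0.095), the start region (-0.15) and the mean of all probes (-0.17), so no direction is given. In the start mean, 6 alternatives chosen after seeing the data kept ligands below receptor chains, with a difference of -0.43 as reported and -0.28 with normexp. The series value table, the setting without the filter on dim probes and that with both channels well above background returned the reported difference. They are thus no support for it. Loess on intensity gave -0.43 and removal of the distance trend -0.41. Of 391 values of named genes under alternatives, 334 stayed on their side of 2-fold, 51 crossed it and 6 reversed. The total includes the series value table, with the same log ratios, and the setting without the filter on dim probes. Those settings could hardly move a value, and 0 crossed in either, so the total is not a measure of stability. Crossings were most frequent in the start region (17), with normexp (12) and with single probes (11). The reversed values were IL31RA with normexp (-0.035) and, in the start region, IL31RA (-0.77), IL17F (-1.13), IL22RA2 (-0.58), IL20 (-0.71) and IL21 (-0.51). The start region leaves out the windows that carried the reported values, and for the other settings the cause was not tested. No paired analysis was possible because the arrays carry different probes and each group has 1 hybridization per probe. Signal close to that of negative control spots limits the dim probes most.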
